A study of Mus musculus with 6 samples.

Results

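The VEGF and angiopoietin-Tie genes are 10 genes that encode the main ligands and receptors through which blood vessel endothelium is kept alive, permeable or quiescent. They are the VEGF receptors Kdr and Flt1, the neuropilin co-receptors Nrp1 and Nrp2, the ligands Vegfa and Vegfb, the Tie receptors Tek and Tie1, and the angiopoietins Angpt1 and Angpt2. They were chosen by name, each matched 1 row of the arrays through its gene symbol, and thus 10 of 10 were found among 24479 genes measured. Liver sinusoidal endothelial cells (LSECs) were isolated from livers of Lyve-1-KO mice (B6.129S1-Lyve1tm1Lhua/J, a constitutive knockout of the hyaluronan receptor Lyve1 on C57BL/6 background) and of wild-type Ctrl mice (C57BL/6J). No other allele or agent is named for either group, and the labels give neither age nor sex. Each group comprised 3 pools of cells from 3 mice each, sorted with anti-CD146 beads after collagenase digestion and hybridized to 1 Affymetrix MoGene-2_0-st array per pool. Both littermates and purchased mice are listed as controls in the methods, so that the origin of the Ctrl mice cannot be told apart from the genotype if they were purchased.

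VEGF-A binds Kdr (VEGFR-2), the receptor that carries most of its signal in endothelium, and Flt1 (VEGFR-1), which binds it tightly, signals weakly and also exists as a soluble decoy. Vegfb binds Flt1, and the neuropilins present VEGF to its receptors and also bind class 3 semaphorins. Angpt1 activates Tek (Tie2) and stabilizes vessels, whereas Angpt2, which is released by endothelial cells themselves, competes with it in many settings, and Tie1 is a related receptor that modulates Tek. In the liver VEGF is known to maintain the fenestrae of LSECs.

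The arrays had been normalized by quantiles, the values are log2 expression levels, and the signal strength of different genes depends on their probes, so that differences were read within a gene only, and ranks and the array median serve to describe how bright a signal was. The sorted values were identical in the 6 arrays, spanned 2.92 to 13.87 and had 5.04 as their median. Precision is limited by the 3 arrays of each group, and as RNA of sorted pools was measured, fewer cells of a type and less RNA per cell cannot be told apart. The targeted gene Lyve1 had 12.85, 12.88 and 12.83 in the Lyve-1-KO arrays and 12.78, 12.69 and 12.84 in the Ctrl arrays (log2 fold change 0.08, limma adjusted p = 0.663), and where its probes lie relative to the deleted part is not analysed here. This signal therefore does not check the genotype, and Lyve-1-KO stands for the arrays that carry this label. In the paper, loss of the Lyve-1 protein in the knockout mice was shown by immunoblot and immunofluorescence of liver tissue. The cell type was checked with 12 LSEC markers, of which 11 were measured, with the targeted gene Lyve1 among them. The mean level of the 11 markers was 12.73 ± 0.02 in Lyve-1-KO and 12.76 ± 0.01 in Ctrl arrays (SD, n = 3, exact permutation test, p = 0.1). Of their log2 fold changes 5 lay above 0. Cd209b had -0.351, as compared to -0.084 (Clec4g) to 0.085 (Lyve1) for the other markers. The lower list mean thus came mostly from Cd209b. All 11 lay at or above the 81st percentile of the array, but the markers of hepatocytes, macrophages and stellate cells lay above the array median as well, so that this check does not settle the cell type by itself. A protocol label speaks of retina as source of the RNA. Ctrl replicate 1 stood apart in its macrophage markers (mean level 7.49 against 8.73 to 9.79 in the other 5 arrays).

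In the comparison of Lyve-1-KO with Ctrl, which asked what differs in LSEC gene expression when Lyve-1 is lost, none of the 10 genes passed the threshold. With limma and an adjustment by Benjamini-Hochberg across the 24479 genes at 0.05, 0 of 10 members passed (lowest adjusted p = 0.339), as compared to 1 gene or 0.00409% of all genes. At an unadjusted p under 0.05 there were 2 members, 1 on the higher side (Vegfa, all genes 5.87%) and 1 on the lower side (Angpt2, all genes 5.33%), against 11.2% of all genes in both directions. The methods' test, which takes the variance from each gene alone, also gave 0 members past the threshold, and 2, Flt1 and Vegfa, at an unadjusted p under 0.05. Groups did not overlap for 3 members, Vegfa above and Flt1 and Angpt2 below Ctrl, while this held for 17.4% of all genes. With 10 members, these shares lie near those of all genes. With the replicate number as a block, 1 member, Vegfa, was left at an unadjusted p under 0.05. Of the 10 log2 fold changes 3 lay above and 7 below 0 (51.1% of all genes lay below 0), and their median was -0.05 (all genes: -0.00374).

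**Figure D1:**
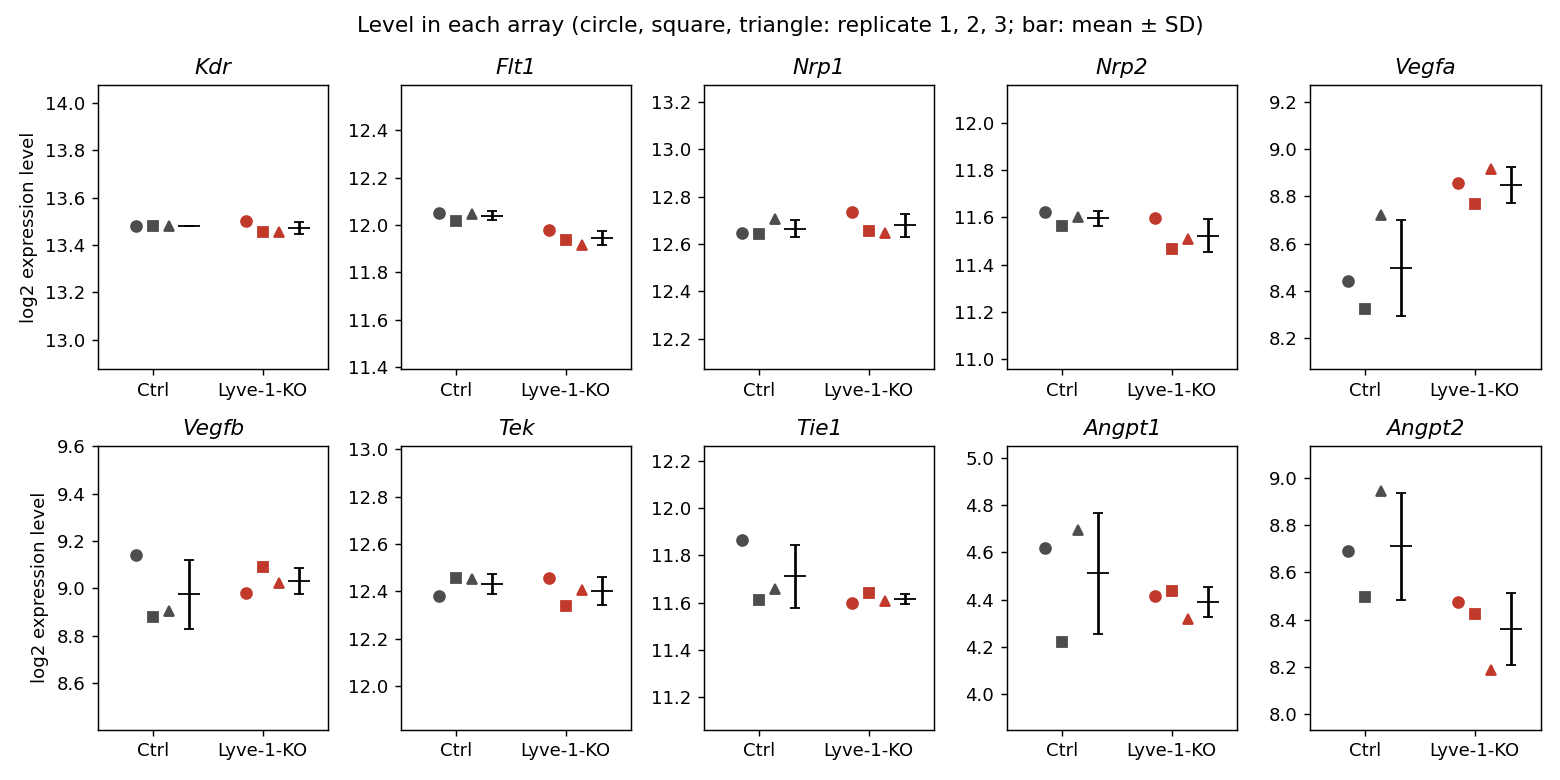
Log2 expression level (y axis, the same span of log2 units in each panel) of the 10 members in 3 Ctrl (grey) and 3 Lyve-1-KO arrays (red), with mean ± SD beside the points and circles, squares and triangles for replicates 1, 2 and 3. The receptor values differ little between the groups, whereas Vegfa is higher and Angpt2 lower in the Lyve-1-KO arrays, each with a narrow gap between the groups.

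Among the ligands, Vegfa (chr17:46016993-46032377, GRCm38) had the largest difference of the members in the upward direction. Its level was 8.86, 8.77 and 8.92 in the Lyve-1-KO arrays and 8.44, 8.32 and 8.72 in the Ctrl arrays. The groups did not overlap, but only 0.05 separated the lowest Lyve-1-KO array, replicate 2, from the highest Ctrl array, replicate 3. The log2 fold change was 0.35 (standard error 0.11), a fold of 1.28 with a 95% interval from 1.07 to 1.53, which did not pass after adjustment (limma adjusted p = 0.339). Its unadjusted p was 0.0154, and an exact permutation test (two-sided) on the 6 arrays gave p = 0.1, the smallest value possible with 3 against 3. Without single arrays the log2 fold change ranged from 0.27 without Ctrl replicate 2 to 0.46 without Ctrl replicate 3. When Lyve-1-KO replicate 3 was left out, its unadjusted p was 0.0514 in limma.

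Hepatocytes and macrophages also express Vegfa, and their markers were measured in the same arrays. All 8 hepatocyte markers were measured, 4 of them with a log2 fold change above 0 and 0 at an unadjusted p under 0.05. Their summed level ranged from 12.26 to 13.08 in Lyve-1-KO and from 12.13 to 12.85 in Ctrl arrays. Their mean level was 8.39 in the Lyve-1-KO and 8.42 in the Ctrl group, and it was highest in Lyve-1-KO replicate 2 (9.21) and Ctrl replicate 2 (9.05). In these arrays Vegfa had the lowest level of its group. All 9 macrophage markers were measured with a summed level from 12.22 to 13.34 in Lyve-1-KO and from 11.03 to 13.17 in Ctrl arrays, 9 of them with a log2 fold change above 0 and 1, Marco, at an unadjusted p under 0.05. Their mean level was 9.33 ± 0.55 in Lyve-1-KO and 8.71 ± 1.11 in Ctrl arrays (SD, n = 3, exact permutation test, p = 0.6). Without Ctrl replicate 1, in which the macrophage markers were lowest, the log2 fold change of Vegfa was 0.32. No marker of either list lay below the array median, and their part in the result was not tested.

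The promoters of Vegfa, Flt1 and Kdr are shown because the first 2 are members whose groups did not overlap and Kdr is the receptor of VEGF-A with the smallest difference. The 250 bases before the transcription start were taken from RefSeq (GRCm38.p6), minus strand and 5′ to 3′. They are chr17:46032378-46032627 for Vegfa, chr5:147726012-147726261 for Flt1 and chr5:75978456-75978705 for Kdr, where the listed starts of Flt1 and Kdr lie inside the annotated span of the gene. Capitals mark matches on either strand to the GC box (GGGCGG), the ETS core (AGGAAG) and the cAMP response element (TGACGTCA), and the hypoxia response core (ACGTG) was searched as well.
Vegfa promoter: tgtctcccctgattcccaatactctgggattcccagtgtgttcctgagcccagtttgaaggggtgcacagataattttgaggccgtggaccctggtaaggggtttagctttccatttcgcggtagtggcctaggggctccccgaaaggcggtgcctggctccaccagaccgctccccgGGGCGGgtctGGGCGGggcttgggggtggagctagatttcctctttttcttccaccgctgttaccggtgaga
Flt1 promoter: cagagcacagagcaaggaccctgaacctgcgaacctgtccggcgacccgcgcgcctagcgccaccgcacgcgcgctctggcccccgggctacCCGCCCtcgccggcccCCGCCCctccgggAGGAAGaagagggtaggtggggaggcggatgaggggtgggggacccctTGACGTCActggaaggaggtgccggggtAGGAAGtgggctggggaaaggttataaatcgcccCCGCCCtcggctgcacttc
Kdr promoter: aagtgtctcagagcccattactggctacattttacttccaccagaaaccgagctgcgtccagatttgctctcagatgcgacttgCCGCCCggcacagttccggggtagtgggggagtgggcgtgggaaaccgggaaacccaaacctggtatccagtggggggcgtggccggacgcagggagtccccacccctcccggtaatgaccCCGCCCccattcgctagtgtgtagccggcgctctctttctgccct
GC boxes were found in all 3, with 2 matches in Vegfa, 3 in Flt1 and 2 in Kdr, and in 6 of the 8 members with a promoter sequence, as compared to 32.7% of 32851 promoters. The GC content of the 250 bases was 59.2% in Vegfa, 70.4% in Flt1 and 61.6% in Kdr, against a median of 52.4% over all promoters. The cAMP response element was found in Flt1 alone among these 8 members and in 1.55% of all promoters. The ETS core was found in Flt1, Nrp1 and Tie1 and in 29.5% of all promoters. The hypoxia core, searched as ACGTG only and not as GCGTG, had no match in the 3 windows shown. Vegfa has a further start within the gene in that table, whose window holds a hypoxia core (16.6% of all promoters). Promoters of Angpt1 and Angpt2 are not shown. A match is a description of letters and not of a bound site.

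Vegfb, the second ligand of Flt1, did not differ beyond the spread between arrays. It had 8.98, 9.09 and 9.02 in Lyve-1-KO and 9.14, 8.88 and 8.90 in Ctrl arrays. The Lyve-1-KO values lay within the range of the Ctrl values, of which replicate 1 was the highest of all 6. The log2 fold change was 0.06 with a 95% interval from -0.15 to 0.26 (limma adjusted p = 0.853), and it was 0.14 without Ctrl replicate 1.

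Kdr (chr5:75932827-75979072), the main signaling receptor of VEGF-A, had the narrowest range of the members. It had 13.50, 13.46 and 13.46 in Lyve-1-KO arrays and 13.48 in each of the 3 Ctrl arrays. After quantile normalization a value is set by the rank of a gene within its array, and Kdr was the 16th brightest of 24479 genes in each Ctrl array and the 15th, 18th and 18th in the Lyve-1-KO arrays. The log2 fold change of -0.01 had a 95% interval that corresponds to folds from 0.906 to 1.09 (limma adjusted p = 0.955).

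Flt1 (chr5:147561604-147726438), the receptor with decoy function, had lower values in the 3 Lyve-1-KO arrays, but did not pass the test. Its level was 11.98, 11.94 and 11.92 as compared to 12.05, 12.02 and 12.05 in Ctrl arrays. The groups were apart by 0.04 between Lyve-1-KO replicate 1 and Ctrl replicate 2. The log2 fold change was -0.10 (standard error 0.06), with folds from 0.854 to 1.03 in the 95% interval and a limma adjusted p of 0.571 (exact permutation test, p = 0.1). The rank of Flt1 was 186 to 194 in the Ctrl and 204 to 221 in the Lyve-1-KO arrays. An unadjusted p under 0.05 was reached by the methods' test (0.0107) and with trend and robust variance (0.0422), but not by limma as used here (0.134).

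The neuropilins Nrp1 and Nrp2 overlapped between the groups. Nrp1 had 12.74, 12.65 and 12.65 in Lyve-1-KO and 12.65, 12.64 and 12.71 in Ctrl arrays. Its log2 fold change was 0.01 (95% interval from -0.13 to 0.16, limma adjusted p = 0.952), and it turned to -0.01 without Lyve-1-KO replicate 1. Nrp2, a co-receptor that also serves lymphatic VEGF ligands, had 11.60, 11.46 and 11.51 in Lyve-1-KO and 11.62, 11.56 and 11.60 in Ctrl arrays. Here, Lyve-1-KO replicates 2 and 3 lay below all Ctrl arrays and replicate 1 between them, with a log2 fold change of -0.07 (95% interval from -0.22 to 0.08, limma adjusted p = 0.707).

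**Figure D2:**
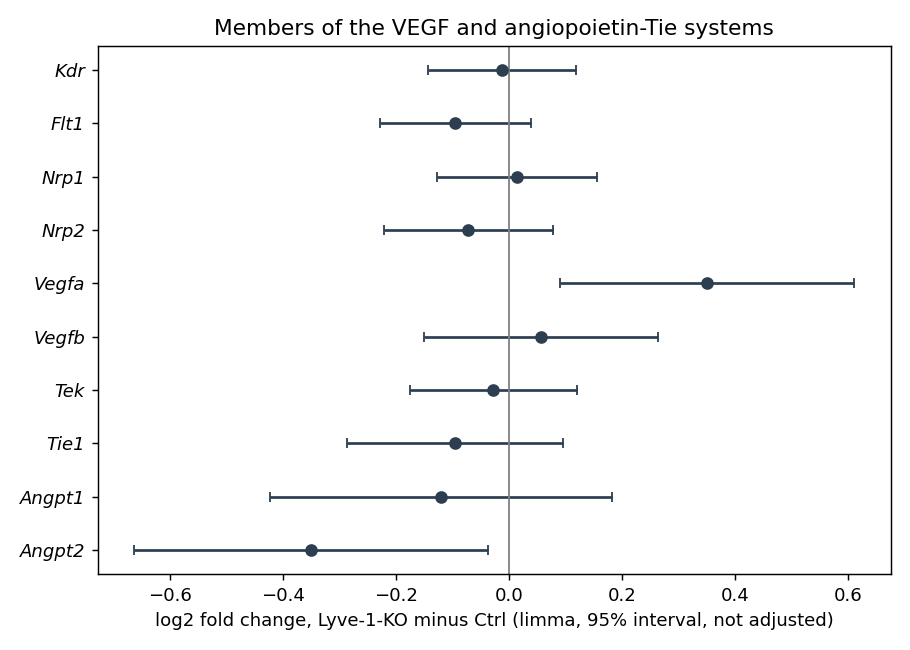
Log2 fold change of each member (x axis, Lyve-1-KO minus Ctrl) with its 95% interval from limma, 3 arrays per group and not adjusted over genes. The intervals of Vegfa (0.09 to 0.61) and Angpt2 (-0.66 to -0.04) exclude 0 before adjustment, and those of the other 8 members include it.

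The Tie receptors did not differ between the groups beyond the spread of the arrays. Tek, the receptor of both angiopoietins, had 12.46, 12.34 and 12.41 in Lyve-1-KO and 12.38, 12.46 and 12.45 in Ctrl arrays. The values were interspersed, and the log2 fold change was -0.03 (95% interval from -0.18 to 0.12, limma adjusted p = 0.903). It was 0.003 without Lyve-1-KO replicate 2. Tie1 had 11.60, 11.64 and 11.61 in Lyve-1-KO and 11.86, 11.61 and 11.66 in Ctrl arrays. Ctrl replicate 1 was the highest by far, and without it the log2 fold change of -0.10 (limma adjusted p = 0.698) was -0.02.

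Of the angiopoietins, Angpt2 (chr8:18690263-18741562) was the member with the largest difference in the downward direction. Its level was 8.47, 8.42 and 8.19 in the Lyve-1-KO arrays and 8.69, 8.49 and 8.95 in the Ctrl arrays. The groups were separated by 0.02 only, between Lyve-1-KO replicate 1 and Ctrl replicate 2. The log2 fold change was -0.35 (standard error 0.13), a fold of 0.784 with a 95% interval from 0.631 to 0.975, and it did not pass after adjustment (limma adjusted p = 0.409, exact permutation test p = 0.1). Leaving out single arrays gave values between -0.46 without Ctrl replicate 2 and -0.23 without Ctrl replicate 3. Its unadjusted p in limma was 0.0334, but 0.0595 with the replicate number as a block, 0.108 when Lyve-1-KO replicate 3 was left out, 0.095 without Ctrl replicate 3, 0.0639 without Ctrl replicate 1 and 0.0518 for Lyve-1-KO replicate 2 left out.

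Markers of pericentral LSECs, veins and lymphatic vessels were read beside Angpt2. All 6 pericentral markers were measured, 1 with a log2 fold change above 0 and 2 lower (Wnt2 and Wnt9b) at an unadjusted p under 0.05, with a summed level from 13.38 to 13.45 in Lyve-1-KO and from 13.52 to 13.72 in Ctrl arrays, and their mean level was 10.36 ± 0.03 as compared to 10.63 ± 0.18 (SD, n = 3; exact permutation test, p = 0.1). The 9 markers of vein and continuous endothelium had summed levels from 13.94 to 13.98 and from 13.95 to 14.19, with 1 higher (Ackr1) and 1 lower (Vwf) at an unadjusted p under 0.05 and 1, Ly6c1, below the array median. Their mean level was 9.392 ± 0.035 as compared to 9.415 ± 0.141 (SD, n = 3, exact permutation test, p = 0.8). Of 5 lymphatic markers 4 were measured, with a mean level of 6.30 ± 0.22 as compared to 6.71 ± 0.08 (SD, n = 3; exact permutation test, p = 0.1), summed levels from 8.98 to 9.65 and from 9.17 to 9.50, and 1 lower at an unadjusted p under 0.05 (Mmrn1). Of these 4 markers 1 lay above 0, Reln with a log2 fold change of 0.145. Mmrn1 had -1.68, as compared to -0.11 for Prox1 and -0.006 for Pdpn, so that the lower list mean came mostly from Mmrn1. Within the Ctrl group the pericentral and vein lists were highest in replicate 1. In Ctrl replicates 1, 2 and 3 the lymphatic list had a mean level of 6.753, 6.615 and 6.755. Mmrn1 had 6.41, 6.16 and 6.66 there, lowest in replicate 2 and highest in replicate 3, as was Angpt2. Prox1 and Pdpn were also lowest in Ctrl replicate 2 but highest in replicate 1, and Reln was highest in replicate 2. In the Lyve-1-KO arrays Mmrn1 was highest in replicate 2 and Angpt2 in replicate 1. Without Ctrl replicate 1 the log2 fold change of Angpt2 was -0.36. The part of these cells in the result was not tested.

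Angpt1, which is known to be made mainly by cells around the vessel, gave a dim signal below the array median. It had 4.42, 4.44 and 4.32 in Lyve-1-KO and 4.62, 4.22 and 4.70 in Ctrl arrays. Ctrl replicate 2 was the lowest and Ctrl replicates 1 and 3 the highest of all arrays, so that the groups overlapped (log2 fold change -0.12, 95% interval from -0.42 to 0.18, limma adjusted p = 0.768). The log2 fold change ranged from -0.27 without Ctrl replicate 2 (unadjusted p = 0.0135 in limma) to -0.03 without Ctrl replicate 3. Stellate cell and fibroblast markers, all 9 of which were measured, had 6 log2 fold changes above 0 and 0 at an unadjusted p under 0.05, with summed levels from 12.31 to 12.98 in Lyve-1-KO and from 12.37 to 12.78 in Ctrl arrays. Their mean level was 7.82 ± 0.31 as compared to 7.78 ± 0.19 (SD, n = 3, exact permutation test, p = 0.9). Platelets carry Angpt1 too, and the mean level of 6 platelet and megakaryocyte markers was 5.58 ± 0.02 as compared to 5.88 ± 0.25 (SD, n = 3; exact permutation test, p = 0.1), with summed levels from 8.48 to 8.54 and from 8.57 to 9.12, with 2 of the 6 below the array median, 0 with a log2 fold change above 0 and 2 lower at an unadjusted p under 0.05. The part of either cell type in the signal of Angpt1 was not tested.

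Related genes were also set against each other as their log2 difference within each array, which is not a ratio of molecules and of which only the change between the groups was read. Angpt2 minus Angpt1 was 4.06, 3.98 and 3.87 in Lyve-1-KO and 4.07, 4.27 and 4.25 in Ctrl arrays. The groups did not overlap, with a difference of -0.23 between their means (exact permutation test, p = 0.1, adjusted p = 0.15 over 3 pairs). As Angpt1 lay below the array median and was not shown to be above background, this value gives no balance of both ligands. Flt1 minus Kdr was -1.52, -1.52 and -1.54 in Lyve-1-KO and -1.43, -1.47 and -1.43 in Ctrl arrays. This pair was apart as well, by -0.08 between the means (exact permutation test, p = 0.1, adjusted p = 0.15), and the difference stayed between -0.09 and -0.08 without each array in turn. Tie1 minus Tek overlapped, with means of -0.79 and -0.72 (exact permutation test, p = 0.6). No pair can pass 0.05 in this design.

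Among themselves, the members varied to different degrees over the 6 arrays. Angpt2 had the largest standard deviation with 0.26, followed by Vegfa with 0.24 and Angpt1 with 0.18, while Kdr had 0.02, Nrp1 0.04 and Tek 0.05. These members also differed in signal level. Kdr, Nrp1 and Tek lay at percentiles 99.9, 99.7 and 99.5 of the array, and Angpt2, Vegfa and Angpt1 at 80.3, 81.7 and 41.5. The part of the signal level in these spreads was not tested. Ctrl replicate 1 was the highest array for 4 and Ctrl replicate 2 the lowest for 4 of the 10 members. The genes whose pattern over the 6 arrays was most like that of Angpt2 were Fam13c, B230214G05Rik and Aifm2. Their centred values differed from those of Angpt2 by a root mean square of 0.05, 0.065 and 0.065 log2 units, and they were the closest of 9954 genes whose standard deviation was at least 0.5 times that of Angpt2. The log2 fold changes of these 3 genes were -0.29, -0.29 and -0.38, and values near that of Angpt2 follow from the choice by likeness over the same 6 arrays. No other relation between these genes was read from the likeness.

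**Figure D3:**
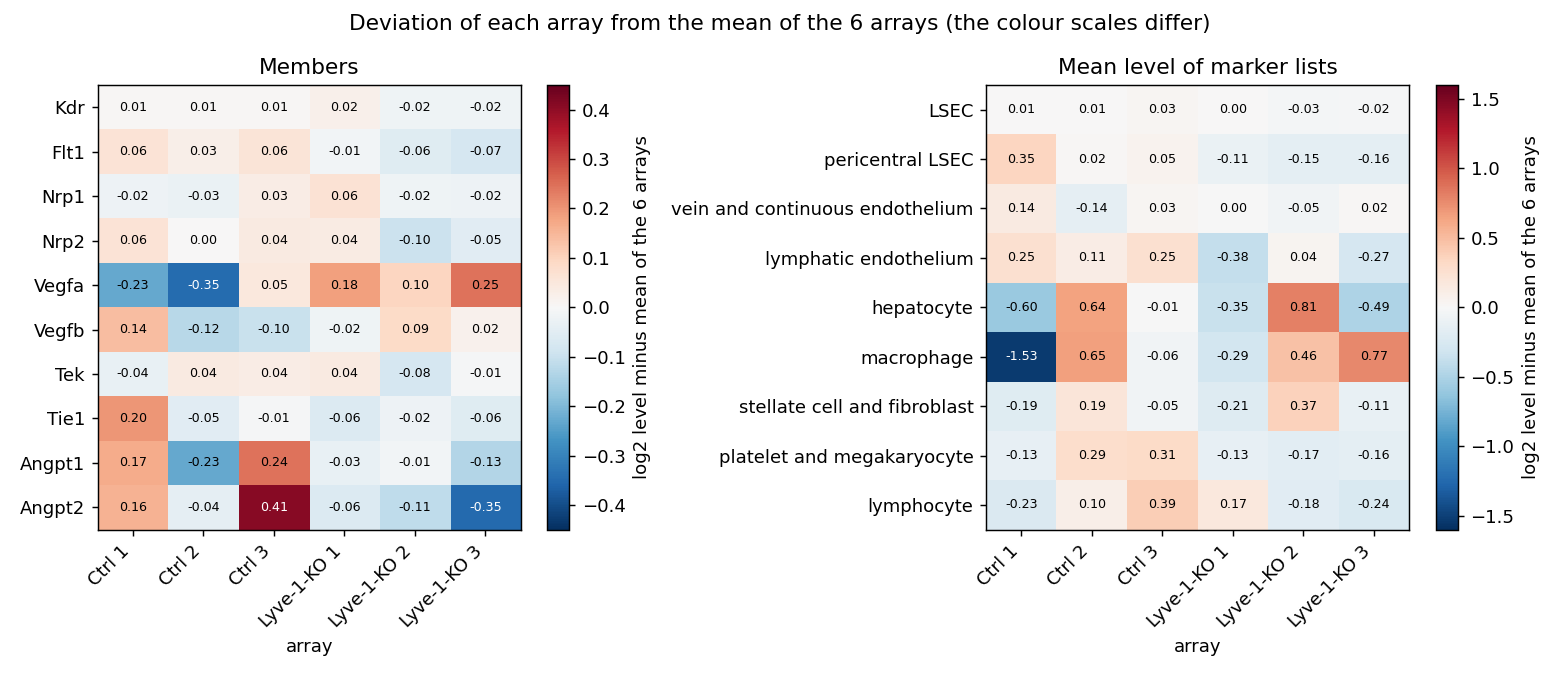
Log2 level of each member (left) and mean level of each marker list (right) minus the mean of the 6 arrays, with arrays on the x axis and colour scales that differ between the panels. Vegfa runs from -0.35 to 0.25 and Angpt2 from -0.35 to 0.41, and the macrophage markers are lowest in Ctrl replicate 1 (mean level 7.49).

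The other genes of both pathways were read in 8 lists with 94 genes, of which 89 were measured. None of them passed limma over all genes (lowest adjusted p = 0.168), and an unadjusted p under 0.05 was found for 7 genes on the higher and 8 on the lower side, that is 16.9% as compared to 11.2% of all genes. The groups did not overlap for 8 higher and 13 lower genes, against 8.71% and 8.73% of all genes. The median log2 fold change over the 89 genes was -0.04.

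Of 4 other ligands, Vegfc, Vegfd, Pgf and Angpt4, none had an unadjusted p under 0.05 (1 without Ctrl replicate 2), and their log2 fold changes ranged from -0.21 to 0.05. Of 13 other receptors and co-receptors, 3 lay on the lower and 0 on the higher side with an unadjusted p under 0.05 (5.33% and 5.87% of all genes). That is 23.1% of the list as compared to 11.2% of all genes in both directions. Itgb3, the β3 integrin that cooperates with Kdr, had 8.56, 8.84 and 8.76 in Lyve-1-KO and 9.26, 8.97 and 9.30 in Ctrl arrays (log2 fold change -0.46, limma adjusted p = 0.269). Itga5 and Itgb1, which form the fibronectin receptor, had log2 fold changes of -0.18 and -0.12, and Gipc1, which binds the tail of Nrp1, had -0.20. These 4 genes were named because of their p-value or because their groups did not overlap. In the list of 13 the groups did not overlap for 4 genes, all of them lower, against 8.73% of all genes on the lower side. Itgb3 is also the β3 integrin of platelets, whose 6 markers had a mean difference of -0.31 between the groups with 0 of 6 above 0, and their part in the value of Itgb3 was not tested. Outside the rule for named genes and chosen after their values were seen, Flt4, the receptor of Vegfc, and Ptprb, the phosphatase that restrains Tek, had log2 fold changes of -0.03 and 0.008. When Lyve-1-KO replicate 1 or Ctrl replicate 3 was left out, 1 gene of this list had an unadjusted p under 0.05.

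Of 7 class 3 semaphorins, the ligands of neuropilins and plexins, 1 was lower at an unadjusted p under 0.05 (5.33% of all genes). Sema3d had 7.38, 7.46 and 6.75 in Lyve-1-KO and 7.88, 7.77 and 7.86 in Ctrl arrays. All Lyve-1-KO arrays lay below the Ctrl arrays, replicate 3 the furthest (log2 fold change -0.64, limma adjusted p = 0.308). The other 6 had log2 fold changes from -0.21 to 0.15, and the count of 1 was 2 without Ctrl replicate 1 or 3.

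Signal transducers of the VEGF receptors, 26 of 30 measured, had 1 gene on either side with an unadjusted p under 0.05. That is 7.69% of the list as compared to 11.2% of all genes. There were 3 genes in all without Ctrl replicate 1 or 2 and with the replicate block. With trend and robust variance and with the methods' test there were 4. Gab1, a docking protein downstream of Kdr, had 9.49, 9.54 and 9.47 in Lyve-1-KO and 9.35, 9.24 and 9.20 in Ctrl arrays (log2 fold change 0.24, limma adjusted p = 0.29). Map2k1, a protein kinase downstream of Kdr, had a log2 fold change of -0.19 (limma adjusted p = 0.327). Ppp3ca, a catalytic subunit of calcineurin, and Rac1, a GTPase of cell migration, had values of -0.16 and -0.10 without an overlap of the groups.

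Of 8 signal transducers of Tek, 2 adaptor proteins were lower and 0 genes higher at an unadjusted p under 0.05 (5.33% and 5.87% of all genes). Grb14 had 4.58, 4.30 and 4.22 in Lyve-1-KO and 5.21, 4.94 and 5.19 in Ctrl arrays. Its groups were 0.36 apart, near or below the array median of 5.04 (log2 fold change -0.75, limma adjusted p = 0.168). Grb7 had 4.97, 5.10 and 5.12 in Lyve-1-KO and 5.66, 5.51 and 5.47 in Ctrl arrays (log2 fold change -0.48, limma adjusted p = 0.168). Ptpn11, the phosphatase SHP2, had a log2 fold change of -0.12, with groups 0.006 apart. The count was 2 or 3 when single arrays were left out.

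The list of VEGF-responsive and tip cell genes, all 14 measured, held 5 genes on the higher and 1 on the lower side with an unadjusted p under 0.05, that is 42.9% as compared to 11.2% of all genes, and 0 passed limma over all genes. The list was chosen with results known, so that its share is a description, and its median log2 fold change was 0.10. Nr4a1, a nuclear receptor that is induced early by VEGF and by many other stimuli, had 10.58, 10.83 and 11.10 in Lyve-1-KO and 9.30, 10.19 and 10.27 in Ctrl arrays. The groups did not overlap, and Ctrl replicate 1, which was also lowest in macrophage markers, had the lowest value by far (log2 fold change 0.92, limma adjusted p = 0.324). Its relative Nr4a2 had 8.44, 8.38 and 8.38 as compared to 7.82, 8.01 and 7.70 (log2 fold change 0.56, limma adjusted p = 0.168). Rcan1, an inhibitor of calcineurin, had 10.48, 10.61 and 10.64 as compared to 10.27, 10.32 and 10.38 (log2 fold change 0.25, limma adjusted p = 0.29). Apln, a peptide of tip cells, lay on the other side at a dim signal with 4.48, 4.45 and 4.35 as compared to 4.74, 4.68 and 5.11 (log2 fold change -0.41, limma adjusted p = 0.316). Without Ctrl replicate 1 the count of this list was 4, and without Ctrl replicate 3 it was 7. Macrophages are known to express Nr4a1 too, and their part in these values was not tested.

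**Figure D4:**
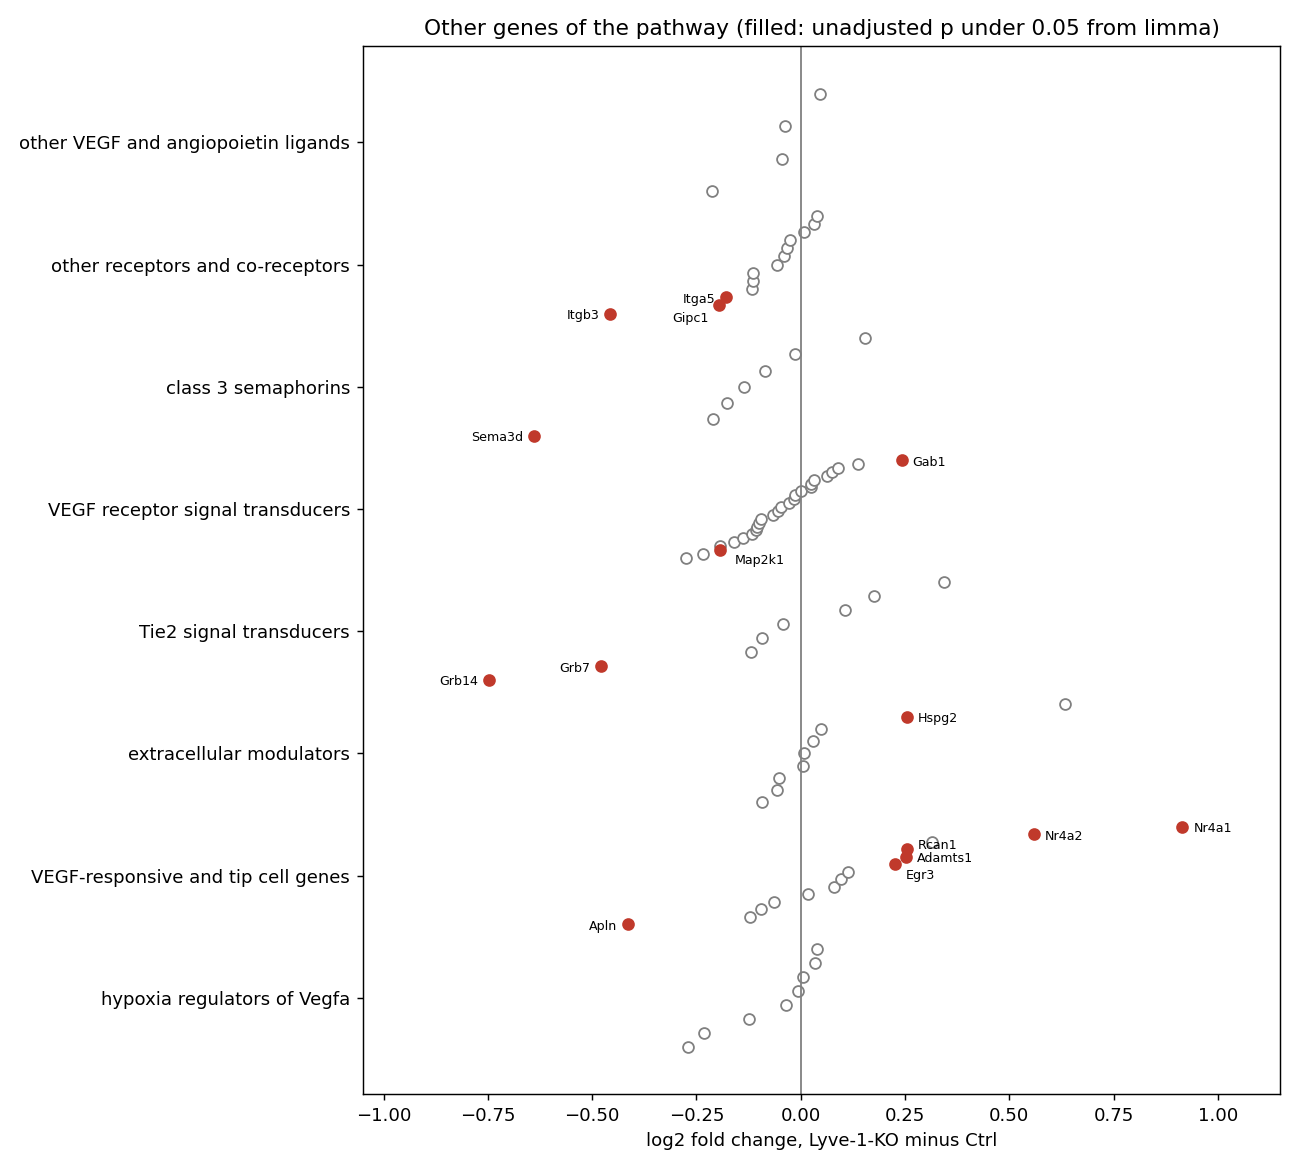
Log2 fold change (x axis, Lyve-1-KO minus Ctrl) of 89 genes in 8 pathway lists (y axis), with genes at an unadjusted p under 0.05 from limma filled and named. None of the 89 genes passes after adjustment. The VEGF-responsive list, which was chosen with results known, holds 5 of the 7 filled genes on the higher and 1 of the 8 on the lower side.

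Of 9 extracellular modulators 1 was higher at an unadjusted p under 0.05 (5.87% of all genes). Hspg2, the basement membrane proteoglycan perlecan that binds VEGF, had 11.72, 11.65 and 11.79 in Lyve-1-KO and 11.40, 11.41 and 11.58 in Ctrl arrays (log2 fold change 0.26, limma adjusted p = 0.326). Its groups did not overlap. Of 8 regulators of the hypoxia response, which controls Vegfa in many tissues, none had an unadjusted p under 0.05 (1 with the replicate number as a block and 1 without Ctrl replicate 3). Their log2 fold changes ranged from -0.27 to 0.04 (lowest adjusted p = 0.524 from limma). The alpha subunits in this list, Hif1a and Epas1, chosen after their values were seen, had 0.005 and -0.006. Only RNA was measured, and the activity of the hypoxia response was not tested.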

How the data were processed

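The labels assign 6 samples to Lyve-1-KO and Ctrl, 3 each. Probes were summarized by the authors to Entrez genes (custom CDF version 18) after quantile normalization, and the deposited table gives 1 log2 expression level for each gene in each sample. The submitters' processing notes name RMA. Of 24479 genes 23281 carry 1 symbol and 1198 are unnamed here. Groups were compared with limma 3.58.1 (lmFit, eBayes) in R 4.3.3 without a filter, and with exact two-sided permutation tests for single values. Intervals are 95% intervals of limma. The p-values measure the spread between pools of 3 mice. The members and lists were chosen with earlier results of these data known. Genes named beside the members were, per list, up to 4 with the smallest unadjusted p among those at p under 0.05 or without overlap of the groups, and for Angpt2, the most variable member, the 3 genes with the most similar pattern.

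After removal of group means, deviations of pools with the same replicate number correlated at 0.206, 0.134 and 0.124, against -0.218 to 0.0432 for other pairs. No label says that the numbers of the titles pair the pools, and these correlations do not settle it. The fit without the block is therefore reported, and the block is an alternative. With the block the unadjusted p from limma was 0.00684 for Vegfa and 0.0595 for Angpt2. The fits were tested on simulated data with independent noise and no pairing. Of 67 genes with a simulated log2 change of 0.5, limma called 44.8%, the block fit 0% and the methods' test 16.4%. Smaller changes, such as those of the members, were not simulated. Alternatives were the block, median centring, a filter at the 40th percentile of level, trend and robust variance, array weights, the methods' test and leaving out each array. Promoters came from RefSeq (GRCm38.p6). Some listed genes are not reported here.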

Additional observations from a re-analysis of the deposited data

How the results depend on the processing

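In none of the 12 alternatives did 1 of the 10 members pass the threshold. Of the 6 alternatives that use all arrays, only the array weights could move the log2 fold change of a member, and no member changed direction with them. The block, the filter, trend and robust variance and the methods' test leave it the same by construction. Median centring shifted nothing after quantile normalization. Without single arrays, Nrp1 ranged from -0.014 to 0.034 and Tek from -0.056 to 0.003, turning sign without Lyve-1-KO replicate 1 and 2, respectively. The pair Tie1 minus Tek ranged from -0.131 to 0.033. The number of members at an unadjusted p under 0.05 was 2 as reported, 1 with the replicate block and 0 to 3 without single arrays. Leaving out Lyve-1-KO replicate 3 gave 0, Lyve-1-KO replicate 2 or Ctrl replicates 1 or 3 gave 1 each, and Ctrl replicate 2 gave 3. Among all genes, 1 passed as reported, 0 with the replicate block, 49 with trend and robust variance, 0 with the methods' test, and 0 to 2 without single arrays. The median of the other receptors and co-receptors ranged from -0.123 to -0.027, of the VEGF receptor signal transducers from -0.081 to -0.028 and of the VEGF-responsive genes from 0.093 to 0.19. With the replicate block, the log2 fold changes of all members were the same by construction, and no call at the threshold changed for a member. The cause of these shifts was not tested. Detection of dim genes such as Angpt1 (mean level 4.39 and 4.51) against background is limited, as the values hold no detection call.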
